A study of Mus musculus with 20 samples.

Results

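The step examined here ran from 1 h to 2 h after the transcription factor IKZF1 (Ikaros) was released into the nucleus of B3 cells, with 1 h as the reference. It rests on 4 of the 20 libraries of the series, the 2 replicates at 1 h and the 2 replicates at 2 h, chosen by their time labels alone. B3 is a mouse pre-B cell line derived from a lymphoma model. The cells carried an Ikaros-ERt2 construct brought in by retrovirus, and all 4 libraries came from cells that had received 500 nM 4-hydroxytamoxifen (4-OHT), while the 0 h cells had received none. RNA held in the chromatin pellet of lysed nuclei was sequenced after ribosomal RNA depletion at 0, 0.5, 1, 2, 6, 12, 15, 18, 21 and 24 h. Because no cells without the construct were analysed here, time in 4-OHT and the action of the fusion protein cannot be told apart.

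IKZF1 is a zinc finger protein that restrains proliferation and shapes gene expression as pre-B cells differentiate, and it recruits the NuRD corepressor to its targets. Fused to the ERt2 domain it stays in the cytoplasm until 4-OHT binds. RNA on chromatin is mostly still being made or processed, so a transcriptional change reaches it sooner than it reaches total RNA. The counts include introns, and therefore polymerases that had started before a change keep adding reads until they reach the end of the gene. An hourly step can thus separate genes that continue to fall, genes that have reached a floor, and genes whose direction turns.

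The 20 libraries held 33296158 to 46868954 counts, and the 4 compared held 46868954 and 39457979 at 1 h and 36305747 and 40957980 at 2 h. Between replicates the chi-square per degree of freedom was 1.55 at 1 h and 1.26 at 2 h, but 9.95 at 12 h, 14.9 at 18 h and 4.78 at 21 h, and those libraries also entered the estimate of spread. In the 4 libraries compared mitochondrial genes took 0.138% to 0.141% of the counts. Levels below are CPM (counts scaled to a common library size) scaled by TMM factors, fold changes are on the log2 scale with the standard error (SE) of the fit, and "fell" or "rose" means an adjusted p under 0.01 at any fold unless 2-fold is stated. The labels do not say whether replicates were separate cultures, so p-values measure only the spread between replicate libraries, pooled over all 10 time points, which may be technical. Where a gene overlaps a neighbour, shared reads cannot be told apart, since the strand setting of the counting is not given in the sources used here.

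Of 16601 genes tested, 180 fell by over 2-fold between 1 h and 2 h (1.08% of all genes tested) and 255 rose by over 2-fold (1.54%). Without the fold threshold 2204 genes fell (13.3%) and 1506 rose (9.07%). These shares of all genes include genes of low count, which are seldom called. Among genes of at least 1 CPM, split into 4 bins of annotated span, 16.1% to 19.0% fell and 4.15% to 27.1% rose. Most members of the lists below are above 1 CPM, so the share of all genes is a low baseline for them. Falling genes were the fewer at 2-fold, 41.4% of the calls, and the more numerous at any fold, 59.4%, and this second share was 47.4% when libraries were scaled by their totals alone. The counts without a fold threshold depended on the libraries fitted. There were 1290 to 1509 falls and 817 to 920 rises when any 1 of the 4 libraries was left out, 3546 and 2770 when only the 4 were fitted, and 3379 and 2519 without the 12, 18 and 21 h libraries. The median log2 fold change was 0.00021, a value that the TMM scaling itself draws near 0, and it was 0.0331 with library totals alone. A change shared by all genes would not be visible after such scaling. Compared with the first hour, in which 803 genes fell by over 2-fold (4.84%) and 386 rose (2.33%), the second hour moved fewer genes by over 2-fold. A change of slope between the hours passed the test in 3532 genes (21.3%), downward in 2154 and upward in 1378. That count was 5647 when only the 8 libraries from 0 h to 2 h were fitted and 5503 without the 12, 18 and 21 h libraries.

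The 3 largest falls were in Tiam1, Enpp6 and Itga5. Tiam1, an exchange factor that activates the GTPase RAC1, stood at 241 and 236 CPM at 1 h and 20.5 and 20.9 CPM at 2 h. Enpp6, a choline-specific phosphodiesterase, stood at 53.8 and 53.7 CPM at 1 h and 4.8 and 4.88 CPM at 2 h. Itga5, the alpha chain of the fibronectin receptor, stood at 40.4 and 38.2 CPM at 1 h and 5.97 and 6.34 CPM at 2 h. In each of these genes both 2 h libraries lay far below both 1 h libraries, and the log2 fold changes were -3.52 ± 0.077 for Tiam1, -3.47 ± 0.088 for Enpp6 and -2.67 ± 0.10 for Itga5. The rule that named the 10 largest falls required such a lack of overlap. It held in 11689 of the 16601 genes tested, and in all 2204 falls and 1506 rises at any fold. Csgalnact1, which starts chondroitin sulfate chains and was the most abundant of the group, had 385 and 387 CPM at 1 h and 87.5 and 87.6 CPM at 2 h. Dock9, an exchange factor for CDC42, had 25.6 and 25.4 CPM at 1 h and 5.24 and 5.23 CPM at 2 h. Fnip2, a partner of folliculin in nutrient signaling, had 6.43 and 6.88 CPM at 1 h and 1.17 and 1.13 CPM at 2 h. Replicates of these 3 genes lay close together compared with the drop between the times, with log2 fold changes of -2.14 ± 0.043, -2.28 ± 0.078 and -2.52 ± 0.12. Spock1, a secreted proteoglycan, had 2.65 and 2.36 CPM at 1 h and 0.4696 and 0.463 CPM at 2 h. The T-box factor gene Tbx19 had 14.6 and 14.7 CPM at 1 h and 2.896 and 3.03 CPM at 2 h. Zan, which encodes the sperm protein zonadhesin, had 8.38 and 8.64 CPM at 1 h and 1.83 and 1.85 CPM at 2 h. Mrgpra1, a Mas-related receptor gene, was already at 8.51% of its 0 h level at 1 h and went from 6.04 and 5.501 CPM at 1 h to 1.28 and 1.36 CPM at 2 h. The largest adjusted p among the 10 was 3.34e-09, and 8 of them overlap another annotated gene, a share that was not counted over all genes. Down by over 2-fold in the first hour were 5 of the 10, against 4.84% of all genes.

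**Figure D1:**
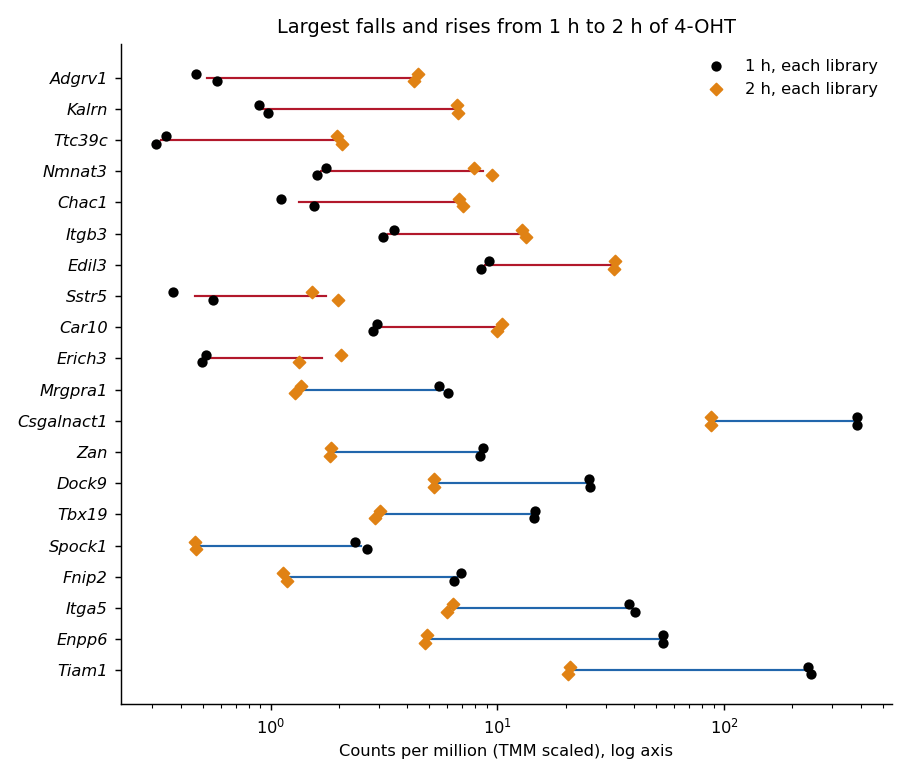
CPM (log axis) of the 10 genes with the largest falls and the 10 with the largest rises from 1 h to 2 h, chosen by the size of that change among genes whose libraries did not overlap. Circles are the 2 libraries at 1 h, diamonds the 2 libraries at 2 h and lines join the means. Tiam1 went from 241 and 236 to 20.5 and 20.9 CPM.

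The study's named targets of IKZF1 mostly kept falling. Of 18 tested, 17 were down by over 2-fold at 1 h, and in the second hour 13 fell (72.2%, against 13.3% of all genes), 3 of them by over 2-fold, with a median log2 fold change of -0.45 against 0.00021 over all genes. Because the study chose these genes on the same libraries, the count is not independent evidence of their direction. Gins2, which the study names among its fast-repressed genes, was listed at 0 counts, for a reason that was not determined. Its expression in these cells cannot be judged from that. Beside Itga5, Ramp1, a subunit of the CGRP receptor, had 7.901 and 8.08 CPM at 1 h and 2.43 and 2.78 CPM at 2 h, and Gfra2, a receptor for neurturin, had 99.8 and 100.1 CPM at 1 h and 46.2 and 46.3 CPM at 2 h. Both times separated without overlap, at -1.61 ± 0.12 and -1.11 ± 0.037. Bcl11a, a repressor of lymphoid progenitors, had 231 and 233 CPM at 1 h and 121 and 119 CPM at 2 h, which put it at 19.3% of its 0 h level. The surrogate light chain genes Igll1 and Vpreb1 reached 5.97% and 18.8% of 0 h, with second-hour changes of -0.77 ± 0.074 and -0.69 ± 0.12. Espnl, which sits beside Ramp1, was the late one, at 81.6% of 0 h after 1 h and 44.4% after 2 h (-0.88 ± 0.095). Smaller falls came in Ccnd2 (-0.55 ± 0.087), Hs3st3b1 (-0.48 ± 0.058), Plekho2 (-0.36 ± 0.073), Ccnb1 (-0.33 ± 0.078), Lrrfip1 (-0.32 ± 0.046) and Endod1 (-0.29 ± 0.049). The call of Ccnb1 was lost without any 1 of the 4 libraries (adjusted p from 0.0165 to 0.0259), and that of Plekho2 without replicate 2 at 1 h (0.0114) or replicate 1 at 2 h (0.0146).

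The remaining 5 targets were not called in this hour. Myc, the growth regulator, was at 31.3 and 29.2 CPM at 1 h and 27.6 and 26.7 CPM at 2 h. Its change was -0.16 ± 0.094 on the log2 scale (adjusted p = 0.213), with a 95% interval from -0.35 to 0.037. Most of its loss lay before 1 h, when it stood at 48.1% of its 0 h level. Ccnd1, cyclin D1, had 3.56 and 3.59 CPM at 1 h and 3.97 and 3.82 CPM at 2 h, and Dntt, terminal transferase, had 1.57 and 1.79 CPM at 1 h and 1.304 and 1.203 CPM at 2 h. For Serpinf1 and Hs3st2 the intervals ran from -0.21 to 0.54 and from -1.05 to 0.56, so the direction of either gene in this hour could not be told. The reads of Ikzf1 itself cannot be split into the cell's own gene and the construct, and the sum rose slightly from 4804 and 4741 CPM at 1 h to 5521 and 5469 CPM at 2 h (0.20 ± 0.038, adjusted p = 3.08e-04).

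The promoters of 2 of the targets that fell by over 2-fold in this hour are shown, since the study concerns binding of IKZF1. They are the 250 bases before the RefSeq start on GRCm38.p6, and TGGGAA on either strand, a core that Ikaros proteins recognise, is in capitals. TGGGAA occurs once in the Ramp1 window, beginning 146 bases before the start, and not in the Itga5 window. Of all 32851 RefSeq promoter windows of this length 21.6% hold it. The study counted the shorter GGAA and GGGA on either strand as IKZF1 motifs. Both windows hold some of these shorter motifs, left in lowercase. The start used in B3 cells was not determined, and a match is only a match of letters.
Ramp1 (chr1:91179572-91179821, plus strand): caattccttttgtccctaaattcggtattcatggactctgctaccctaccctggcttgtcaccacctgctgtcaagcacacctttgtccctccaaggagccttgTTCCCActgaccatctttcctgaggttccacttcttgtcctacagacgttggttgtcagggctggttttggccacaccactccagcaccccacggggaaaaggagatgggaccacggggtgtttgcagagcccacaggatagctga
Itga5 (chr15:103366792-103367041, minus strand): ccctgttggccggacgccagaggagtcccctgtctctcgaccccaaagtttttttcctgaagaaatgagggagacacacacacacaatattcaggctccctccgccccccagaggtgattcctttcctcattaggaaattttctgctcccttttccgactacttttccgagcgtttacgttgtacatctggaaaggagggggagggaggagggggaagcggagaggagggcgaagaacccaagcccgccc

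Genes of ribosome production fell together in this hour, having summed to 90.1% and 90.4% of their 0 h level at 1 h. In the list of ribosome biogenesis and RNA polymerase I genes, 20 of 22 fell and none rose, each by under 2-fold, against 13.3% and 9.07% of all genes. All 22 lay below their 1 h value, with a median of -0.54 and a range from -0.81 to -0.14, while the median for the first hour was -0.14 and none had passed 2-fold. Polr1b, the second-largest subunit of RNA polymerase I, had 80.2 and 75.8 CPM at 1 h and 44.1 and 45.01 CPM at 2 h. Ubtf, which opens ribosomal DNA for transcription, had 66.8 and 67.5 CPM at 1 h and 38.6 and 40.9 CPM at 2 h. Noc2l, a nucleolar protein that also inhibits histone acetylation, had 127 and 121 CPM at 1 h and 78.5 and 79.9 CPM at 2 h. The replicate libraries were close and the times did not overlap, at -0.81 ± 0.05, -0.76 ± 0.062 and -0.65 ± 0.045. Ncl, nucleolin, the most abundant of the 4 named, had 308 and 312 CPM at 1 h and 205 and 213 CPM at 2 h (-0.57 ± 0.043). Npm1 and Wdr12 were the 2 members not called, at -0.22 ± 0.082 and -0.14 ± 0.043, and they are named after their values were seen. Summed over the 22 genes the level was 2631 and 2656 CPM at 0 h and 2813 and 2840 CPM at 30 min. The sum was 2381 and 2390 CPM at 1 h and 1803 and 1819 CPM at 2 h, so it was already falling between 30 min and 1 h.

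Other parts of the protein synthesis machinery moved in the same direction by less. All 25 cytosolic ribosomal protein genes tested lay below their 1 h level and 6 fell (24.0%, against 13.3% of all genes), including Rps19 (-0.44 ± 0.059), Rpl10a (-0.36 ± 0.06), Rpl11 (-0.26 ± 0.06) and Rpl8 (-0.34 ± 0.081), with a median of -0.21. These 6 calls depended strongly on the fit, from 2 when replicate 1 at 1 h or either 2 h library was left out to 21 when only the 4 libraries entered the model. In 3 lists written after values were seen, 15 of 26 translation factors, 10 of 28 subunits and factors of RNA polymerases I and III and 4 of 8 chaperonin CCT genes fell (57.7%, 35.7% and 50%), and no call was a rise. Their medians were -0.24, -0.13 and -0.20. Of the MYC network, Mnt (-0.65 ± 0.092), Max (-0.24 ± 0.038) and Mxd3 (-0.42 ± 0.088), all partners or antagonists of MYC, were the 3 of 10 that fell (30.0%). Mnt and Mxd3 had stood above 0 h at 1 h, at 119% and 127%, and were at 75.6% and 94.7% at 2 h. Max went from 85.8% to 72.7%.

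**Figure D2:**
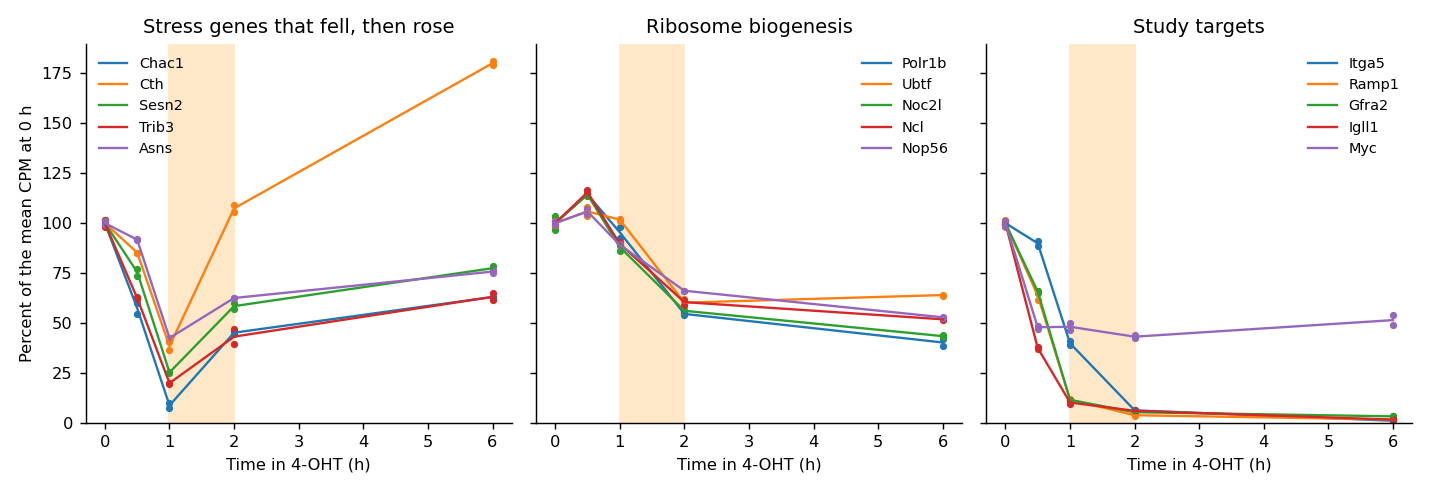
Level as percent of the mean CPM at 0 h (vertical axis) over time in 4-OHT (h, horizontal axis), for stress genes that turned, ribosome biogenesis genes and study targets. Points are libraries, lines join means of 2, and the shaded band is the hour from 1 h to 2 h. Chac1 went from 8.69% to 45.1% within the band, Polr1b from 95.4% to 54.5% and Itga5 from 39.8% to 6.24%.

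Genes already down at 1 h divided in the next hour. Of the 803, 210 fell further (26.2%), 83 of them by over 2-fold, 47 rose (5.85%), 17 of them by over 2-fold, and 194 (24.2%) were level in the sense that the 95% interval lay within 1.5-fold either way. These groups overlap, since 47 of the level genes were also called, and 399 were neither called nor level. Over all genes tested 13.3% fell, 9.07% rose and 56.8% were level. A gene counts as level only with a narrow interval, which low counts seldom give. The 803 genes had a median of 1.15 CPM, against 7.56 CPM over all genes, so the 2 level shares are not on equal terms. Over the 803 genes the median second-hour change was -0.27. Both steps share the 1 h libraries, and noise there pushes them apart, so a low value at 1 h gives a fall and then a rise. With 1 library at 1 h for the first step and the other for the second, 151 or 163 genes fell further and 26 or 25 rose. Of the 68 genes down by over 2-fold at 30 min, a comparison that shares no library with this hour, 19 fell further (27.9%), 22 were level (32.4%) and none rose.

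Genes already up at 1 h divided less evenly. Of the 386, 120 rose further (31.1%), 41 of them by over 2-fold, 12 fell (3.11%) and 174 (45.1%) were level, 40 of them also called. Another 120 were neither called nor level, and the median second-hour change was 0.22. The shares over all genes tested were 9.07% rising, 13.3% falling and 56.8% level, at a median of 7.56 CPM against 3.15 CPM for the 386. With different 1 h libraries for the 2 steps, 81 or 84 rose further and 6 or 5 fell. Among members of at least 1 CPM with libraries that did not overlap, the 5 largest falls were in Lingo1, Nefh, Pou2f2, Arhgap45 and Tmem120b. Lingo1, a neuronal receptor component, went from 1.79 and 1.78 CPM at 0 h through 4.12 and 4.003 CPM at 1 h to 0.991 and 1.13 CPM at 2 h, -1.93 ± 0.18, and ended below where it had started. Nefh, the heavy neurofilament chain, had 4.61 and 4.08 CPM at 1 h and 2.45 and 2.43 CPM at 2 h. Pou2f2, the lymphoid octamer factor OCT2, had 33.5 and 31.8 CPM at 1 h and 23.7 and 19.96 CPM at 2 h and Arhgap45, a GTPase activator of blood cells, had 159 and 153 CPM at 1 h and 106 and 109 CPM at 2 h. At 2 h these 3 stood at 118%, 144% and 145% of 0 h, and for Nefh this difference from 0 h was not called (adjusted p = 0.189). Tmem120b fell least (-0.43 ± 0.11). Its call was lost when libraries were scaled by totals (adjusted p = 0.0147) and under DESeq2's Wald test (0.0276). The call was also lost when any 1 of the 4 libraries was left out, with log2 fold changes from -0.47 to -0.38.

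**Figure D3:**
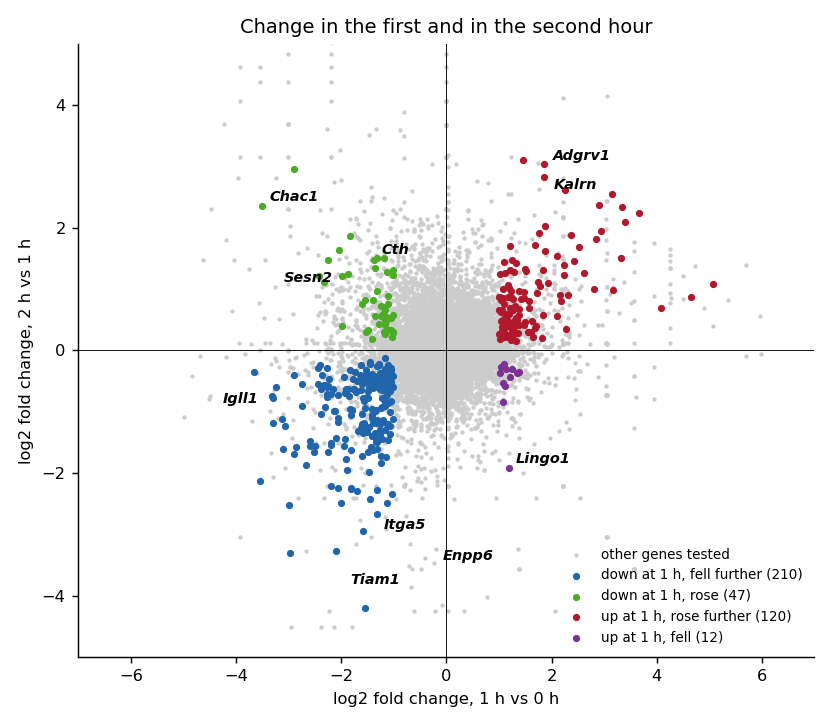
Log2 fold change from 0 h to 1 h (horizontal axis) and from 1 h to 2 h (vertical axis) for the genes tested, with 11 outside the axes. Colors mark the 4 classes, 210, 47, 120 and 12 genes, and both axes share the 1 h libraries.

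Genes that turned upward after falling included members of the amino acid and stress response that the factor ATF4 controls. Chac1, which breaks down glutathione, had 15.2 and 15.4 CPM at 0 h and 1.55 and 1.105 CPM at 1 h and 7.02 and 6.78 CPM at 2 h. Its 2 h libraries lay well above both 1 h libraries and below both 0 h libraries, and the second-hour change was 2.35 ± 0.12 after -3.50 in the first. Cth, which makes cysteine from cystathionine, had 47.6 and 46.1 CPM at 0 h and 18.9 and 17.02 CPM at 1 h and 49.5 and 51.1 CPM at 2 h, a rise of 1.48 ± 0.057, after which it was not called different from 0 h (adjusted p = 0.0982). Sesn2, a leucine sensor that restrains mTORC1, had 6.93 and 7.0 CPM at 1 h and 16.5 and 15.7 CPM at 2 h, and Trib3, a pseudokinase target of ATF4, had 2.54 and 2.48 CPM at 1 h and 5.92 and 4.996 CPM at 2 h. At 2 h they stood at 58.4% and 43.2% of their 0 h level. Asns, asparagine synthetase, had 53.6 and 53.02 CPM at 1 h and 78.2 and 78.8 CPM at 2 h (0.56 ± 0.052). Nrcam, a neural adhesion gene, rose by under 2-fold and went from 4.14 and 4.94 CPM at 1 h to 8.35 and 9.28 CPM at 2 h.

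In the list of ATF4, ER and heat stress genes, 6 of 17 rose (35.3%, against 9.07% of all genes) and 2 fell (11.8%, against 13.3%). Of its 5 members down by over 2-fold at 1 h, Chac1, Sesn2, Trib3 and Asns rose and Atf5 fell (-0.61 ± 0.13, named after its value was seen). Herpud1, a part of ER-associated degradation, rose from 31.9 and 31.6 CPM at 1 h to 50.5 and 50.6 CPM at 2 h without having been down by 2-fold. Atf4 itself was not called (-0.17 ± 0.076, adjusted p = 0.0969). In 2 lists written after values were seen, 8 of 22 genes of amino acid synthesis and transport rose (36.4%) and 1 fell, with Slc7a11, the cystine carrier, at 0.72 ± 0.064, and 5 of 20 cytosolic aminoacyl-tRNA synthetase genes rose (25%) and 4 fell (20%). The 22 summed to 1166 and 1140 CPM at 1 h and 1212 and 1209 CPM at 2 h, having been 1871 and 1850 at 0 h.

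The promoters of Chac1 and Sesn2, which turned upward, are given on the same build and length, with TGATGNAA on either strand, the element bound by ATF4 with C/EBP proteins, and TGGGAA in capitals. The Chac1 window holds the first, beginning 193 bases before the start, and the Sesn2 window the second, at 180 bases, and 3.45% of all RefSeq windows hold the first. The E-box CACGTG was searched too and is in neither (6.02% of all windows).
Chac1 (chr2:119350992-119351241, plus strand): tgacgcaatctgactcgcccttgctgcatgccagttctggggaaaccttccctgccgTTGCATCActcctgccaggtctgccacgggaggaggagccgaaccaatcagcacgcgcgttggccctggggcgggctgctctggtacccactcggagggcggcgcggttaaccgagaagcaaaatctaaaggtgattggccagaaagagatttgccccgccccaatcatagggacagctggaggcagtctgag
Sesn2 (chr4:132510457-132510706, minus strand): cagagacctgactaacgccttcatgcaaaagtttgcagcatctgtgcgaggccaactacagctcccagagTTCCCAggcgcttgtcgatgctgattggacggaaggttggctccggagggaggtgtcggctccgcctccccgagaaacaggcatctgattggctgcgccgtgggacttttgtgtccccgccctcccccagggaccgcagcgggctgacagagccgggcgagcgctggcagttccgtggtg

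Of the 10 largest rises 7 were in genes spanning over 100 kb, and so were 6 of the 10 largest falls. Of the 16601 genes tested 2131 span that far. Already up by over 2-fold at 1 h were 7, against 2.33% of all genes. Adgrv1, a very large adhesion receptor, had 0.579 and 0.467 CPM at 1 h and 4.305 and 4.44 CPM at 2 h. Kalrn, an exchange factor for small GTPases, had 0.972 and 0.884 CPM at 1 h and 6.73 and 6.62 CPM at 2 h. Ttc39c had 0.3103 and 0.344 CPM at 1 h and 2.06 and 1.97 CPM at 2 h, and Nmnat3, which makes NAD in mitochondria, had 1.59 and 1.74 CPM at 1 h and 9.42 and 7.84 CPM at 2 h. In these 4 the 2 h libraries were several-fold above those at 1 h, with log2 fold changes of 3.04 ± 0.18, 2.84 ± 0.16, 2.62 ± 0.23 and 2.37 ± 0.15. Edil3, a matrix ligand of integrin alpha V, had 8.46 and 9.14 CPM at 1 h and 32.7 and 33.1 CPM at 2 h and went on to 215 and 221 CPM at 6 h. Itgb3, the integrin beta 3 chain, had 3.12 and 3.49 CPM at 1 h and 13.4 and 12.8 CPM at 2 h and reached 49.7 and 48.2 CPM at 6 h, and it had not been called in the first hour (0.49). Car10, related to carbonic anhydrases, had 2.83 and 2.95 CPM at 1 h and 9.91 and 10.5 CPM at 2 h, and Sstr5, a somatostatin receptor, had 0.558 and 0.368 CPM at 1 h and 1.98 and 1.53 CPM at 2 h. Erich3 rose least, from 0.496 and 0.516 CPM at 1 h to 1.33 and 2.04 CPM at 2 h, with 2 h replicates far apart, and it stood at 0.537 and 0.625 CPM at 6 h. The largest adjusted p of the 10 was 1.93e-05, and Chac1 is the only one that had been down. Another annotated gene overlaps 6 of them, again with no share over all genes counted.

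Some genes stood near their 0 h level at 1 h and moved after it. Among 7909 genes within 1.2-fold of 0 h at 1 h, 35 fell and 58 rose by over 2-fold in the second hour. They made up 19.4% of the 180 falls and 22.7% of the 255 rises. Both shares were below the 47.6% that such genes made up of all genes tested. Of the 5 largest late falls that the naming rule gave, Enpp6 and Spock1 are described above, and Enpp6 had already fallen slightly in the first hour (-0.24, adjusted p = 0.00522). The receptor kinase gene Alk had 15.9 and 16.6 CPM at 0 h and 15.9 and 16.9 CPM at 1 h and 4.93 and 5.85 CPM at 2 h. Kynu, an enzyme of tryptophan breakdown, had 38.8 and 40.7 CPM at 1 h and 13.6 and 14.04 CPM at 2 h and was at 53.8 and 55.7 CPM at 6 h, above its 0 h level of 33.8 and 34.7. Inafm1 had 2.399 and 2.898 CPM at 1 h and 0.678 and 1.06 CPM at 2 h. Of the 5 late rises named, 4 had come down again by 6 h. Lrrn2, a leucine-rich repeat protein of neurons, had 3.17 and 2.82 CPM at 1 h and 10.4 and 9.58 CPM at 2 h and 2.73 and 2.61 CPM at 6 h. Clec2l, a C-type lectin-like gene, had 1.47 and 1.253 CPM at 1 h and 4.2 and 4.74 CPM at 2 h, and Aqp4, a water channel, had 2.11 and 2.33 CPM at 1 h and 6.83 and 6.73 CPM at 2 h. Gcnt2, which branches blood group I chains, had 1.84 and 1.89 CPM at 1 h and 5.58 and 5.37 CPM at 2 h. By 6 h Clec2l, Aqp4 and Gcnt2 were at 1.24 and 1.01, 2.59 and 2.54, and 2.52 and 2.65 CPM. Wnk3, a kinase that regulates chloride transport, had 3.68 and 3.095 CPM at 1 h and 9.42 and 10.3 CPM at 2 h and stayed up at 11.6 and 11.4 CPM.

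Among B-lineage transcription factor genes, 9 of 28 fell (32.1%, against 13.3% of all genes) and 3 rose (10.7%, against 9.07%). Besides Bcl11a the largest fall was in Runx1, a core factor of blood development, with 2400 and 2359 CPM at 1 h and 1304 and 1276 CPM at 2 h (-0.88 ± 0.052). Ikzf3, the Ikaros relative Aiolos, fell (-0.54 ± 0.072), as did Tcf4, the E protein E2-2 (-0.45 ± 0.038), while Ikzf1, Bach2 and Foxo1 were the 3 that rose. In the surrogate light chain and pre-BCR list 4 of 20 fell (20%), with the adaptor Blnk at -0.63 ± 0.07 and the kinase Btk at -0.38 ± 0.04 beside Igll1 and Vpreb1, and Ighm alone rose. Of 12 V(D)J recombination genes 3 fell and 3 rose (25% each), among them Xrcc5 (Ku80, -0.22 ± 0.035) and Polm, a polymerase of end joining (0.84 ± 0.12).

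Shares of falling genes in signaling lists ranged from near the 13.3% of all genes upward. Of the IL-7 receptor list 4 of 18 fell (22.2%) and none rose, and Jak3, the kinase bound to the common gamma chain, had 22.3 and 22.01 CPM at 1 h and 12.03 and 11.4 CPM at 2 h (-0.92 ± 0.11). Stat6 (-0.50 ± 0.08), Stat5a (-0.34 ± 0.072) and Socs2 (-0.26 ± 0.071) were the others. As a whole the 18 genes did not shift, with 9 below and 9 above their 1 h value and a median of 0.00435. Of 15 NF-kB genes 6 fell (40.0%), including Nfkb2 (-0.67 ± 0.14), Nfkbid (-0.44 ± 0.099) and Nfkbib (-0.41 ± 0.09), and only Rel, the lymphoid subunit c-Rel, rose (0.21 ± 0.043). The 15 were split, 8 below and 7 above their 1 h value, with a median of -0.032. Their sum went from 529 and 536 CPM at 1 h to 562 CPM in both 2 h libraries. In 3 further lists the share that fell was near that of all genes, 13.6% of immediate early genes, 14.3% of MAPK feedback genes and 11.1% of PI3K, FOXO and KLF genes. Among 22 immediate early genes 3 fell, Nr4a1 (-0.92 ± 0.11), Junb (-0.80 ± 0.14) and Fosl2 (-0.49 ± 0.10), and Klf6 rose (0.38 ± 0.11). Of 14 MAPK feedback genes Dusp4 (-0.47 ± 0.074) and Dusp7 (-0.81 ± 0.17) fell and Spred1 rose (0.24 ± 0.054). Of 18 genes of the PI3K, FOXO and KLF list, Inpp5d, the phosphatase SHIP1 (-0.41 ± 0.053), and Akt1 (-0.40 ± 0.071) fell and Sesn3 rose (0.20 ± 0.049).

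Of 28 integrin and focal adhesion genes 4 fell (14.3%, near the 13.3% of all genes) and 5 rose (17.9%, against 9.07%). Itga5 and Itgal, the alpha chain of LFA-1 (-0.46 ± 0.079), were among the falls, and Itgb3 and Itga4, the alpha chain of VLA-4, with 97.9 and 103 CPM at 1 h and 141 and 141 CPM at 2 h, among the rises. Itgad, named after its value was seen, was the second integrin gene up by over 2-fold, from 0.455 and 0.639 CPM at 1 h to 1.38 and 1.06 CPM at 2 h. Of 14 Notch genes 2 fell and 2 rose (14.3% each). Maml2 and Maml3 both encode mastermind coactivators of Notch. Maml2 had 115 and 117 CPM at 1 h and 35.4 and 36.5 CPM at 2 h and Maml3 had 2679 and 2648 CPM at 1 h and 4151 and 4081 CPM at 2 h, with no overlap in either and log2 fold changes of -1.69 ± 0.077 and 0.63 ± 0.039. Dtx1, a Notch target and modulator, rose (0.85 ± 0.16), and Notch1 fell (-0.25 ± 0.069). In heparan sulfate synthesis 4 of 13 fell (30.8%) and 1 rose (7.69%). Ext1, which extends the chain, had 1846 and 1834 CPM at 1 h and 1114 and 1105 CPM at 2 h (-0.73 ± 0.035), while the sulfotransferase gene Hs6st3 rose from 1.59 and 1.105 CPM at 1 h to 3.39 and 3.49 CPM at 2 h (1.33 ± 0.16). Relative to 0 h, Ext1 stood at 118% at 1 h and 71.2% at 2 h. Of 14 genes in the homing and migration list 4 fell (28.6%), Plxnd1 (-0.55 ± 0.084), Sema4d (-0.33 ± 0.067) and Cd44 (-0.28 ± 0.064) among them. Arhgap15, a member of the list that is not a receptor, rose (0.47 ± 0.054).

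Cell cycle genes moved by small amounts. Of 27 DNA replication genes 6 rose (22.2%, against 9.07% of all genes) and none fell. The rises included Cdc45 (0.16 ± 0.037), Rrm2, a subunit of ribonucleotide reductase (0.20 ± 0.054), and Lig1, the ligase that joins Okazaki fragments (0.15 ± 0.036). Of 21 G1 genes 4 fell (19.0%) and 3 rose (14.3%). The share that fell was near the 16.1% to 19.0% among genes of at least 1 CPM, against 13.3% of all genes. Cdk6, the partner of D cyclins, had 2885 and 2874 CPM at 1 h and 1980 and 1987 CPM at 2 h (-0.54 ± 0.03). The retinoblastoma relatives Rb1 (0.19 ± 0.039) and Rbl1 (0.19 ± 0.034) rose. Of 25 mitosis genes 4 fell (16.0%, near the share of all genes), including Cdc20 (-0.33 ± 0.06) and Bub1b (-0.20 ± 0.044), and Ndc80 rose (0.20 ± 0.048). Among BCL2 family genes 4 of 10 fell (40.0%) and none rose, with both protective and death-promoting members, Bcl2 (-0.27 ± 0.039), Bax (-0.46 ± 0.075), Bid (-0.24 ± 0.058) and Bbc3 (-0.58 ± 0.13). Bax and Bid had stood above 0 h at 1 h, at 130% and 172%, and were at 94.6% and 146% at 2 h. Bcl2 and Bbc3 had been at 69.0% and 79.7% and reached 57.3% and 53.1%. Bax and Bbc3 are also p53 targets, a list in which Aen (-0.42 ± 0.06) and Zmat3 (-0.20 ± 0.044) fell as well and Sesn2 rose.

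Of the NuRD subunit genes, which encode the corepressor itself, 3 of 13 fell (23.1%, against 13.3% of all genes), Mbd3 (-0.47 ± 0.073), Chd4 (-0.25 ± 0.042) and Chd3 (-0.36 ± 0.082), and Mbd2 rose (0.29 ± 0.04). The 3 that fell had stood at 123%, 107% and 135% of 0 h at 1 h. At 2 h they were at 89.2%, 89.8% and 105%. Summed over the 13 genes the level was 127% and 126% of 0 h at 1 h and 125% in both 2 h libraries. Long RNAs retained on chromatin gave 5 falls (55.6%) and 1 rise (11.1%) among 9, with Malat1 at 3636 and 3708 CPM at 1 h and 3008 and 3071 CPM at 2 h (-0.27 ± 0.03), Pvt1 at -0.40 ± 0.037 and Mir142hg at -0.58 ± 0.073 against Neat1, the scaffold of paraspeckles, at 0.35 ± 0.029. Of 8 stem and progenitor genes Tal1 (-1.78 ± 0.28) and Igf2bp3 (-0.11 ± 0.03) fell (25%) and the cytokine receptor Flt3 rose from 1.99 and 1.65 CPM at 1 h to 4.59 and 4.23 CPM at 2 h. Of 17 interferon-stimulated genes 2 fell (11.8%, near the share of all genes). Bst2, tetherin, had 2.296 and 2.95 CPM at 1 h and 1.41 and 1.04 CPM at 2 h, and Oasl2 had 0.248 and 0.344 CPM at 1 h and 0.0522 and 0.0694 CPM at 2 h, which at 2 h is a few counts per library. Cholesterol synthesis gave 1 fall, Scap (-0.34 ± 0.054), and 1 rise, Fdps (0.39 ± 0.11), of 25 (4.00% each). In a list of 56 replication-dependent histone genes written after values were seen, 47 lay above their 1 h level but only Hist1h3a rose (0.46 ± 0.13).

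**Figure D4:**
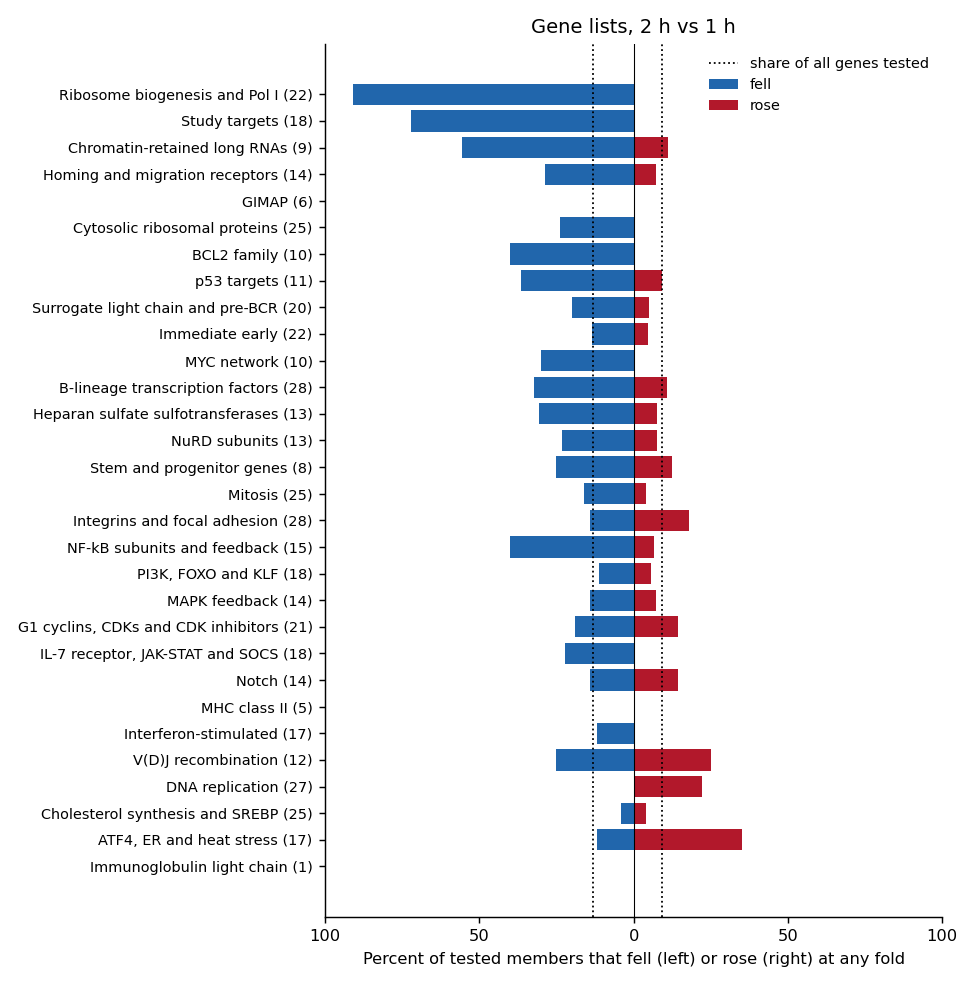
Percent of the tested members of each list that fell (left) or rose (right) at any fold from 1 h to 2 h, ordered by median log2 fold change, with the number tested in brackets. Dotted lines give the shares over all genes tested, 13.3% and 9.07%. Ribosome biogenesis has 90.9% of its members falling and the ATF4 and stress list 35.3% rising.

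The share of genes called differed with gene span, the distance from annotated start to end. Rises at any fold went from 3.06% of genes under 10 kb to 7.17%, 12.8% and 20.3% of genes over 100 kb, while falls stayed between 11.3% and 15.3%. Above 2-fold, 2.39% of genes over 100 kb fell and 3.33% rose, against 1.01% and 0.948% under 10 kb. The 255 genes up by over 2-fold had a median span of 36.7 kb and the 180 down 31.0 kb, against 20.8 kb for all genes. Precision differed between the bins, since the median SE was 0.189 under 10 kb and 0.077 over 100 kb, and its part in these shares was not tested. Limited to genes of at least 1 CPM, rises ran from 4.15% under 10 kb to 27.1% over 100 kb and falls between 16.1% and 19.0%. Above 2-fold, with the same limit, falls outnumbered rises over 100 kb, 2.82% against 2.41%. Under 10 kb these shares were 1.05% and 0.558%. Among the 803 genes down at 1 h, 15.8% of those under 10 kb and 37.5% of those over 100 kb fell further, with median levels of 0.505 and 3.58 CPM. Their median second-hour changes were alike, -0.268 and -0.23, and 2.73% and 8.59% of them rose.

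**Figure D5:**
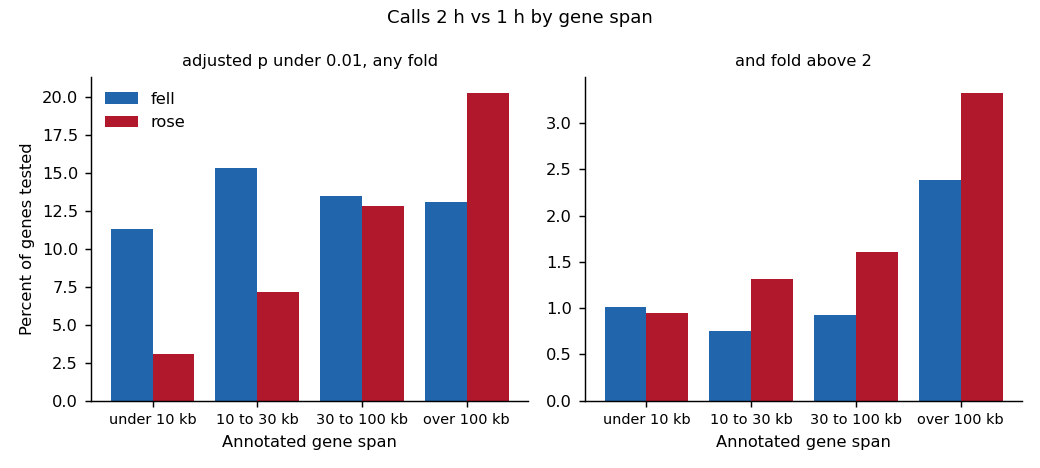
Percent of genes tested that fell or rose from 1 h to 2 h (vertical axes), at any fold on the left and by over 2-fold on the right, by annotated gene span in 4 bins. The share that rose at any fold went from 3.06% to 20.3%.

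Markers of pre-B cells were present at unequal levels. Of 11 listed, 9 were tested, and the recombinase genes Rag1 and Rag2 did not pass the filter on low counts. The factor genes Ebf1 (14590 and 14520 CPM at 1 h and 14080 and 14080 CPM at 2 h) and Pax5 (1397 and 1376 CPM at 1 h and 1253 and 1227 CPM at 2 h) were abundant. Of the 9 tested pre-B markers all lay below their 1 h value and 4 fell, Igll1, Vpreb1, Blnk and Pax5, while Ebf1 and Cd79a (25.3 and 23.4 CPM at 1 h and 24.4 and 22.9 CPM at 2 h) were not called. Only 4 of 9 T cell markers, 2 of 9 myeloid, 2 of 8 erythroid and 1 of 8 stromal passed the filter on low counts. Summed over the tested members the T cell list ranged from 77.3 to 79.9 CPM, of which Cd28 was nearly all, and the myeloid list from 5.06 to 6.805 CPM in the 4 libraries. Cd8b1 rose from 0.145 and 0.172 CPM at 1 h to 0.678 and 0.555 CPM at 2 h, and Pecam1, an adhesion molecule also on B cells, fell from 269.5 and 269 CPM at 1 h to 139.5 and 141 CPM at 2 h (-0.94 ± 0.077). In bulk RNA a change in the share of cells and a change per cell cannot be told apart.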

How the data were processed

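Chromatin-associated RNA was sequenced from B3 cells at 10 time points with 2 libraries each, and the 4 libraries at 1 h and 2 h were compared. The authors deposited raw counts per gene, not normalized, made from reads aligned to the mouse genome (mm10, GRCm38) with intronic reads kept. The labels' processing notes name CASAVA 2.17 and featureCounts. The annotation release, the strand setting and the treatment of shared reads are not given in the sources used here.

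A gene was tested where 2 or more of the 20 libraries held 10 or more counts, which kept 16601 of 56239. All 20 libraries were fitted with 1 mean per time point in edgeR 4.0.16 (TMM factors, quasi-likelihood test, R 4.3.3, limma 3.58.1), so that all time points shared 1 estimate of spread. The SE was the log2 fold change divided by the square root of the F statistic. A gene was called at a Benjamini-Hochberg adjusted p under 0.01 over all genes tested, with or without a fold above 2. Slope change was the contrast of the second hour minus the first. A gene was level where its 95% interval lay within 1.5-fold. The fit was also run on simulated counts, and the outcome is not reported here.

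Genes were named by rule. These were the 10 largest falls and rises averaging at least 1 CPM with libraries that did not overlap, the study's targets and Ikzf1, up to 4 genes per list with the smallest p, the 5 largest reversals in each direction, and the 5 largest late starters in each direction (within 1.2-fold of 0 h at 1 h), leaving out model names and pseudogenes. Some genes that the rule names are not reported here. Genes and lists were chosen with earlier results of these data known. Symbols, spans and overlaps came from GENCODE M21, which held 55240 of the IDs, and promoters from RefSeq on GRCm38.p6. Alternatives were other scalings (DESeq2 1.42.0 size factors, library totals), other filters and thresholds, DESeq2's Wald test, a replicate block, a fit of fewer libraries, each library left out in turn, and different 1 h libraries for the first and second hour.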

Additional observations from a re-analysis of the deposited data

Results flagged for a closer look

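Of the 47 genes that fell over 2-fold in the first hour and rose in the second, and the 12 that rose and then fell, the 5 largest second-hour changes each way, among genes of at least 1 CPM with libraries that did not overlap, are given with their change of slope. They were chosen for the reversal, so the slope values, adjusted over all genes in edgeR, describe its size and do not test it independently. The 1 h libraries enter both hours, so an error at 1 h would enlarge each of these values.

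In the 5 genes that fell and then rose, the slope changed on the log2 scale by 5.86 ± 0.21 (SE, adjusted p = 3.17e-14) for Chac1, 3.44 ± 0.19 (1.88e-11) for Trib3, 3.20 ± 0.17 (9.25e-12) for Sesn2, 2.86 ± 0.10 (3.17e-14) for Cth and 2.29 ± 0.16 (6.58e-10) for Nrcam. In the 5 genes that rose and then fell, it was -3.11 ± 0.28 (2.75e-08) for Lingo1, -1.92 ± 0.23 (1.52e-06) for Nefh, -1.69 ± 0.17 (1.50e-07) for Pou2f2, -1.64 ± 0.20 (1.74e-06) for Tmem120b and -1.61 ± 0.14 (2.42e-08) for Arhgap45.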

How the results depend on the processing

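Of 55 named genes followed, 49 kept their direction and their side of the threshold under the 13 alternatives that refitted single genes (scaling, filters, test, threshold, replicate block, libraries left out). The 20 genes with the largest changes were among them. The exceptions were Tmem120b, Ccnb1 and Plekho2, which lost their calls as given above, Serpinf1, which reached -0.099 without replicate 1 at 2 h and 0.42 without replicate 2, Hs3st2, which reached 0.086 without replicate 2 at 2 h and -0.62 without replicate 1, and Myc, called with only the 1 h and 2 h libraries (adjusted p = 0.00258) or without the 12, 18 and 21 h libraries (0.00817), an alternative added after seeing the data. The cause was not tested.

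Counts moved more. With only the 4 libraries (8 where 0 h is needed), 3546 genes fell and 2770 rose at any fold, 670 of those over 100 kb rose, 21 cytosolic ribosomal protein genes fell, 75 genes down at 1 h rose, 26 up at 1 h fell and 5647 changed slope. Without the 12, 18 and 21 h libraries the falls were 3379, the rises 2519, the ribosomal protein genes 20, the up-then-falling genes 24 and the slope changes 5503. At an adjusted p under 0.05, 397 genes rose over 2-fold, 2396 at any fold, 83 down genes rose, 25 up genes fell and 11 ribosomal protein genes fell, and without a filter on low counts 15 did. A test against 2-fold left 42 falls and 26 rises. Scaling by library totals left 5 up genes falling. Different 1 h libraries left 26 or 25 down genes rising and 6 or 5 up genes falling. Under a tighter bound 74 down and 72 up genes were level. With a fold above 1.5 required, 27 down genes rose, 73 up genes rose and 2 fell.

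Leaving out 1 library leaves a lone sample, assumed to vary like the other groups. It gave 144 to 157 falls and 179 to 195 rises over 2-fold, 1290 to 1509 and 817 to 920 at any fold, 27 to 33 down genes rising, 69 to 85 up genes rising, 6 to 8 up genes falling, 1896 to 2913 slope changes, 2 to 4 ribosomal protein genes falling and 273 to 305 genes over 100 kb rising.

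With a replicate block 176 genes fell and 248 rose over 2-fold, 174 and 244 of them shared with the fit without it. Deviations of same-numbered libraries at 1 h and 2 h correlated at 0.0504 over 9283 genes of at least 5 CPM. Those at 1 h correlated with 30 min and 6 h at 0.154 each, with 18 h at 0.221 and with 12 h at -0.195. These values cannot tell whether same-numbered libraries share a culture. With 2 libraries per time, small changes in genes of low count were not detectable.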
